A study of Mus musculus with 6 samples.

Results

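The genes described are the WNT ligands, the Frizzled receptors, and the secreted antagonists of the Sfrp and Dkk families, in whole mouse testis. They were chosen by name, as every gene of the table whose symbol starts with Wnt, Fzd or Sfrp and a digit, with Dkk and a digit, or with Dkkl. This gave 38 of 23361 genes: 19 ligands, 10 Frizzled receptors, 4 Sfrp genes and 5 genes of the Dkk group, among them the Dkk-like gene Dkkl1. Polyadenylated RNA was sequenced from testes of 6 C57BL/6J mice aged about 120 days. All 6, controls included, were homozygous for Ret V805A, a substitution that makes this kinase, the signalling receptor for GDNF, open to chemical inhibition. The 3 control mice were injected daily for 9 days with a vehicle of saline, cremophor and ethanol, and the 3 inhibitor mice with the same vehicle carrying 1NaPP1-HCl. Testes were taken on day 14, after 5 days of recovery. No group received the compound without the substitution, so its effects through Ret and through other targets cannot be told apart. The libraries are separate mice by their labels, so the spread given below is that between mice.

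WNT ligands are secreted, lipid-modified proteins that bind Frizzled receptors together with the co-receptors Lrp5 or Lrp6. In the canonical branch this binding stabilises beta-catenin, which then acts with TCF/LEF factors on target genes such as Axin2, and other branches act through cell polarity proteins. Sfrp proteins bind the ligands outside the cell, and Dkk proteins bind the co-receptors. In the testis, Sertoli cells are known to express Wnt6, and WNT signalling is known to act on the progenitor part of the undifferentiated spermatogonia.

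The family's RNA was carried by few genes, and its 3 most abundant members were Dkkl1 and the ligand genes Wnt3 and Wnt6. The 250 bases upstream of their RefSeq transcription starts (build GRCm38.p6, each read 5′ to 3′ on the gene's own strand) are shown because these genes dominate the values below. Capitals mark GC boxes, the letters GGGCGG on either strand.
Wnt3: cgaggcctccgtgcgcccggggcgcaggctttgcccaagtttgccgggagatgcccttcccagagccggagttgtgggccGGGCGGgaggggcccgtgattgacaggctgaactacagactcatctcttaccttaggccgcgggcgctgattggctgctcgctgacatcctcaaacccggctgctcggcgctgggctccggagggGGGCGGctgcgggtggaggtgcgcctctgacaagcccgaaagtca
Wnt6: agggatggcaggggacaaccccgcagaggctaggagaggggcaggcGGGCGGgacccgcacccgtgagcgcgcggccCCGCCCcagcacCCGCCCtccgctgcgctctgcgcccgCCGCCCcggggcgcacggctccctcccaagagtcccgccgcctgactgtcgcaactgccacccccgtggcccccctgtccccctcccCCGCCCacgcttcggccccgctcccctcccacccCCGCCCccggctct
Dkkl1: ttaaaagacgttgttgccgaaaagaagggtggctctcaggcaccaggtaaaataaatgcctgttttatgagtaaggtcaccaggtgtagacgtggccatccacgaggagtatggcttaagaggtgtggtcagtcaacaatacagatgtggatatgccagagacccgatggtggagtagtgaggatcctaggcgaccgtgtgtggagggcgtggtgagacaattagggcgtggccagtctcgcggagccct
The windows lie at chr11:103773925-103774174 on the forward strand, chr1:74771642-74771891 on the forward strand, and chr7:45211884-45212133 on the reverse strand. In the GENCODE M21 gene models, Dkkl1 spans 45207519 to 45212147, which takes in its whole window, and Wnt3 starts at 103774150, inside its window. By those models the Dkkl1 window is thus not upstream of the gene. The ligand windows were rich in G and C, at 68.0% for Wnt3 and 79.6% for Wnt6, and held 22 and 28 CpG pairs. That of Dkkl1, at 52.4% and 11 CpG pairs, was at the median G and C content of the 32851 windows in the RefSeq table (52.4%) and above their median of 6 CpG pairs. The Wnt3 window had 2 GC boxes, the Wnt6 window 6 and the Dkkl1 window 0, against at least 1 in 32.7% of all windows. None of the 3 held the cAMP response element TGACGTCA (in 1.55% of all windows), the TCF/LEF letters CTTTGAT (3.21%) or TATAAA (12.4%), each searched on both strands. Of the 38 members, 26 had a window in that table.

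Library totals ranged from 23144295 to 43127890 fragments. Inhibitor mouse 3 stood apart from its group, with chi-square values per degree of freedom of 12.1 and 13.1 against the other inhibitor mice, compared with 4.23 to 6.05 for the other pairs within groups. Germ cell and somatic markers of testis were present throughout, with summed levels of 23600 to 26640 CPM (fragments scaled to a common library size after TMM, edgeR's correction for library composition) for 11 elongating spermatid genes and 1563 to 1873 CPM for 15 Sertoli cell genes. Of 12 tested markers of undifferentiated spermatogonia, 12 had negative log2 fold changes, and 4 passed the adjusted test (Ret, Sox3, Zbtb16 and Lin28a). Of all tested genes, 51.0% were below 0 and 0.0960% passed as lower. The marker lists were chosen with earlier results of these data known. The undifferentiated markers summed to between 85.0 and 87.9 CPM in controls and between 58.8 and 65.0 CPM in inhibitor mice. In the other 12 marker lists 0 genes were called. Their summed levels, which the most abundant genes of a list weigh on most, were higher in inhibitor mice without overlap for spermatocytes (10 of 11 genes above 0), elongating spermatids (10 of 11) and mesothelium (2 of 3). The sums were also higher without overlap for differentiating spermatogonia and macrophages, where most single genes went the other way: 8 of 9 (median log2 fold change −0.17) and 7 of 10 (median −0.03) were below 0. They overlapped for round spermatids, Sertoli, Leydig, peritubular myoid, fibroblast, endothelial and epididymal markers, the last with Lcn5 and Wfdc15b at 0 in every library.

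Levels of the ligands were compared per transcript length, as the deposited FPKM. Wnt3, which is needed for gastrulation in the embryo, was the most abundant, at 12.1 ± 0.28 FPKM in controls and 13.6 ± 0.72 FPKM in inhibitor mice (SD, n = 3 per group). Wnt6 followed at 11.01 ± 0.31 and 9.51 ± 0.35 FPKM. In each group the lowest Wnt3 value was above the highest Wnt6 value. Wnt5b, a ligand known mainly for signalling without beta-catenin, came next at 3.18 ± 0.22 and 3.14 ± 0.20 FPKM. These 3 genes made up 83.9% ± 0.56 of the summed FPKM of all 19 ligands in controls and 83.0% ± 1.44 in inhibitor mice.

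The other ligands were far lower. Wnt2 had a mean over all 6 libraries of 1.32 FPKM, and Wnt3a (0.776), Wnt5a (0.629), Wnt7a (0.610), Wnt2b (0.447) and Wnt1 (0.434) lay between 0.4 and 0.8 FPKM, with ranges over mice that overlapped between neighbours in this order. The remaining 10 ligands were at or under 0.194 FPKM, the mean of Wnt9a. Wnt4, which is required for development of the female gonad, had between 2 and 17 fragments per library. Wnt8a and Wnt16 had at most 2 fragments in any library.

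Neighbouring ligand genes differed widely in level. Wnt6 (chromosome 1, 74771892 to 74785322, GRCm38, forward strand) lies 6.19 kb from Wnt10a, which had a mean of 0.098 FPKM against 10.3 for Wnt6. Wnt3 (chromosome 11, 103774150 to 103817957, forward strand) lies 24.3 kb from Wnt9b, which had 0.044 FPKM against 12.9. The pairs Wnt3a with Wnt9a, 16.2 kb apart on chromosome 11, and Wnt1 with Wnt10b, 11.7 kb apart on chromosome 15, held no abundant gene. GENCODE M21 places Gm29539, a locus the deposited table does not list, on the strand opposite Wnt6, and Fbxl14 opposite Wnt5b. It also places loci opposite Wnt5a, Wnt7b, Wnt11, Fzd3, Fzd5, Fzd6 and Sfrp2. Because the strand setting of the counting is not given in the sources used here, fragments of such partners may be included. Loci on the same strand overlap Fzd3 (Gm27263) and Wnt2b (Gm43846), and their fragments may be included under any strand setting.

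**Figure D1:**
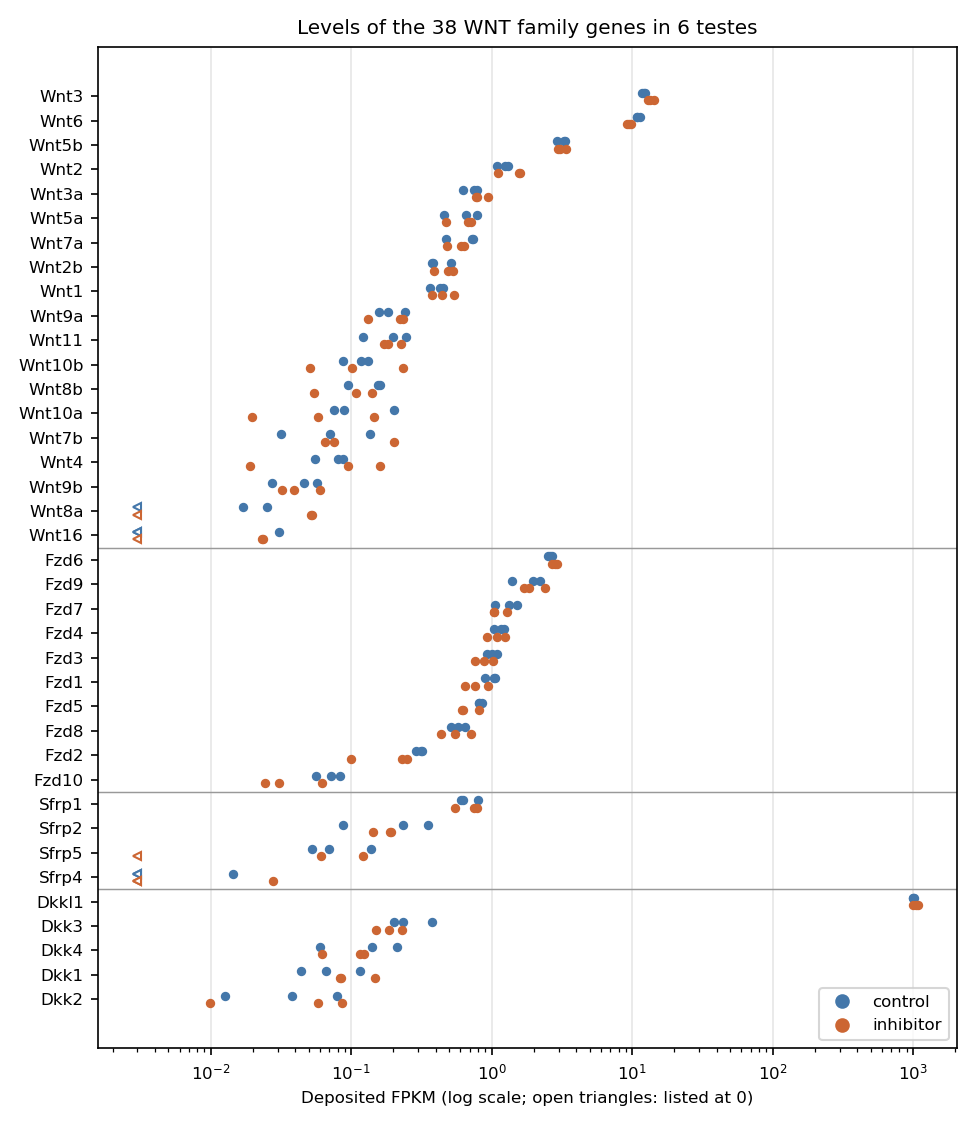
Deposited FPKM of each of the 38 genes (horizontal axis, log scale) in the 3 control and 3 inhibitor mice (1 point per mouse, ordered by mean level within ligands, Frizzled, Sfrp and Dkk genes). Dkkl1 averages 1023 FPKM, Wnt3 12.9 and Wnt6 10.3, and values listed at 0 are open triangles at the left edge.

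Frizzled receptors were spread more evenly. Fzd6, a receptor known for its part in hair follicle polarity, was the highest at 2.60 ± 0.088 FPKM in controls and 2.81 ± 0.10 in inhibitor mice, and its lowest value, 2.52, was above the highest of Fzd9, 2.38. Fzd9 (1.92 over all mice), Fzd7 (1.21), Fzd4 (1.12), Fzd3 (0.947), Fzd1 (0.890), Fzd5 (0.754) and Fzd8 (0.573) followed, each overlapping the next. Fzd2 was lower at 0.250 FPKM, and Fzd10 was lowest at 0.055. Fzd6 made up 24.4% ± 2.43 of the summed Frizzled FPKM in controls and 27.7% ± 2.26 in inhibitor mice. The sum over the 10 receptors was 10.7 ± 0.68 FPKM in controls and 10.1 ± 0.49 in inhibitor mice, and that over the ligands was 31.4 ± 0.74 and 31.6 ± 0.30.

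The antagonist genes other than Dkkl1 were scarce. Sfrp1 had 0.678 ± 0.107 FPKM in controls and 0.697 ± 0.133 in inhibitor mice. Sfrp2 was at 0.200 and Sfrp5 at 0.073 over all mice, and Sfrp4 had a single fragment in each of 2 libraries and none in the other 4. Dkk3, a member of the family that is not known as a potent WNT antagonist, was at 0.270 ± 0.092 and 0.189 ± 0.040 FPKM. Dkk4, Dkk1 and Dkk2 followed at 0.119, 0.090 and 0.047 FPKM, each with at most 7 fragments per library.

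Dkkl1 was of another order. It encodes a secreted protein related to Dkk3 that is made in developing spermatocytes and spermatids and is found in the acrosome of sperm. Its level was 996, 1004 and 1009 FPKM in control mice 1, 2 and 3 and 1083, 1046 and 998 in inhibitor mice 1, 2 and 3, which was 79.6 times that of Wnt3 over all mice and ranked 39 among the 23361 genes. The values of inhibitor mice 1 and 2 were above all controls and that of inhibitor mouse 3 lay within them.

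The comparison of inhibitor with control mice asks whether RNA of this signalling system differed after treatment meant to block GDNF signalling through Ret. Wnt6 was lower and Wnt3 higher in all 3 inhibitor mice than in any control, and neither passed the adjusted test. No member was called: 0 of the 25 members with enough fragments to be tested passed an adjusted p of 0.05 (edgeR quasi-likelihood test, Benjamini-Hochberg adjustment over 16658 genes), where 0.156% of all tested genes did. DESeq2, which gave no adjusted p for 19 of the 25, called 0 of the other 6. Limma-voom and limma on the FPKM values also called 0. At an unadjusted p under 0.05 there were 2 members, or 8.0%, against 17.9% of all tested genes. In 3 members, or 12%, the groups did not overlap, against 22.9% of all. The other 13 members had at most 17 fragments in any library and were not tested. The median log2 fold change of the tested members was −0.04 (0.017 after an offset fitted in every library to gene length and GC content), with 11 above 0 and 14 below, and that of all tested genes was −0.004, with 51.0% below 0. The 25 are the members with enough RNA, not the whole family.

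**Figure D2:**
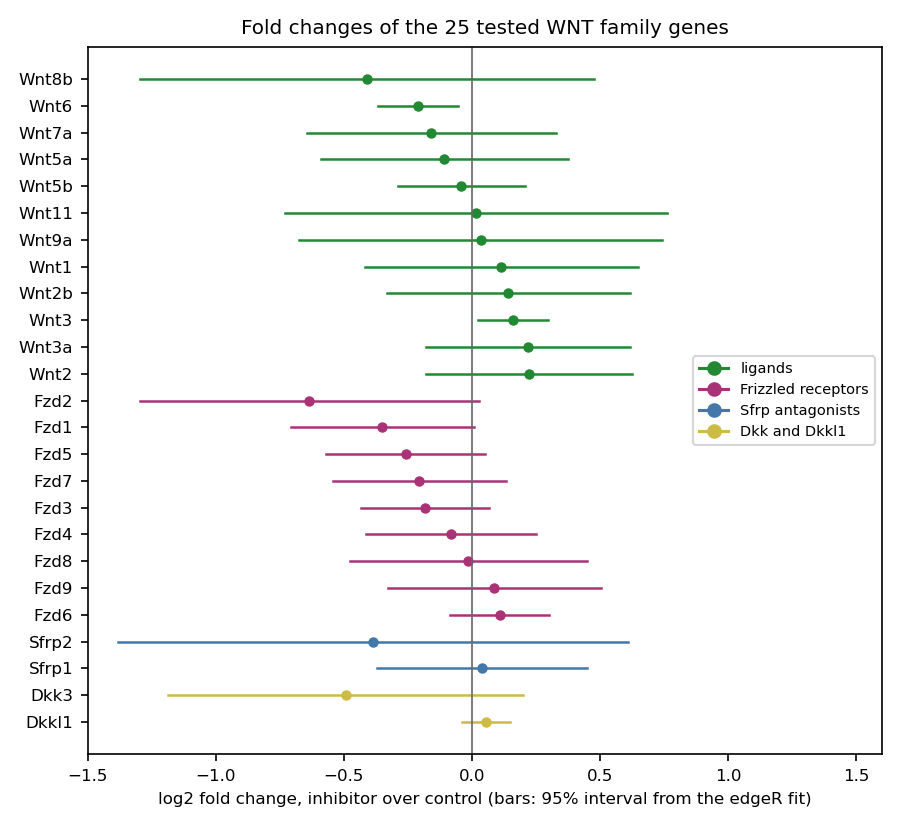
Log2 fold change of inhibitor over control (horizontal axis) for the 25 tested genes, coloured by subfamily, with the 95% interval from the edgeR fit as bars. The intervals of Wnt6 and Wnt3 alone leave out 0, before adjustment, on opposite sides of it.

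Wnt6 stood at 20.5, 20.8 and 21.6 CPM in control mice 1, 2 and 3 and at 18.8, 17.4 and 18.1 CPM in inhibitor mice 1, 2 and 3. All inhibitor values were under all controls. The log2 fold change was −0.21 (SE 0.072, 95% interval −0.37 to −0.05), with an adjusted p of 0.159 in the edgeR test and 0.088 to 0.550 over the alternatives tried. With that offset it was −0.13, and without inhibitor mouse 3 it was −0.21. The value rested on 398 to 912 fragments per library. The list of Sertoli cell markers had 11 of 15 members lower, a median log2 fold change of −0.05, no call, and summed levels of 1664 to 1720 CPM in controls and 1563 to 1873 in inhibitor mice. The only marker list whose sums were lower without overlap was that of undifferentiated spermatogonia. It summed to 85.0 to 87.9 CPM in controls and 58.8 to 65.0 in inhibitor mice. The part of either list in the Wnt6 values was not tested. In whole tissue, fewer cells of a type and less RNA per cell cannot be told apart.

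Wnt3 stood at 35.1, 36.2 and 36.8 CPM in control mice 1, 2 and 3 and at 39.8, 38.5 and 42.5 CPM in inhibitor mice 1, 2 and 3. All inhibitor values were above all controls. The log2 fold change was 0.16 (SE 0.063, 95% interval 0.02 to 0.30), with an adjusted p of 0.216 in the edgeR test and 0.191 to 0.468 over the alternatives. Without inhibitor mouse 3, the highest value, it was 0.12. Summed markers of spermatocytes were at 7675 to 7983 CPM in controls and 8304 to 8539 in inhibitor mice (10 of 11 genes higher, 0 called). Those of elongating spermatids were also higher without overlap, at 23600 to 24480 and 25730 to 26640 CPM (10 of 11 genes higher, 0 called). So were the sums for differentiating spermatogonia, macrophages and mesothelium, whose single genes are described above. The part of any of these lists in the Wnt3 values was not tested.

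The ratio of these 2 ligands, chosen after their values were seen, needs no scaling between libraries. There were 0.583, 0.574 and 0.587 Wnt6 fragments per Wnt3 fragment in control mice 1, 2 and 3 and 0.472, 0.453 and 0.425 in inhibitor mice 1, 2 and 3. The controls lay close together and every inhibitor mouse was under them. The mean log2 ratio differed by −0.37, beside an SD of 0.017 in controls and 0.076 in inhibitor mice. An exact two-sided permutation test gave p = 0.1 (n = 3 per group), the smallest value that this design allows. With Wnt6 lower and Wnt3 higher in every inhibitor mouse than in any control, the ratio had to separate the groups. The outcome of that test was thus fixed by the choice of genes, and it adds nothing to the single-gene values. As a share of the summed ligand FPKM, Wnt6 was at 35.1% ± 0.26 in controls and 30.1% ± 0.92 in inhibitor mice, and Wnt3 at 38.7% ± 0.18 and 42.9% ± 1.94.

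**Figure D3:**
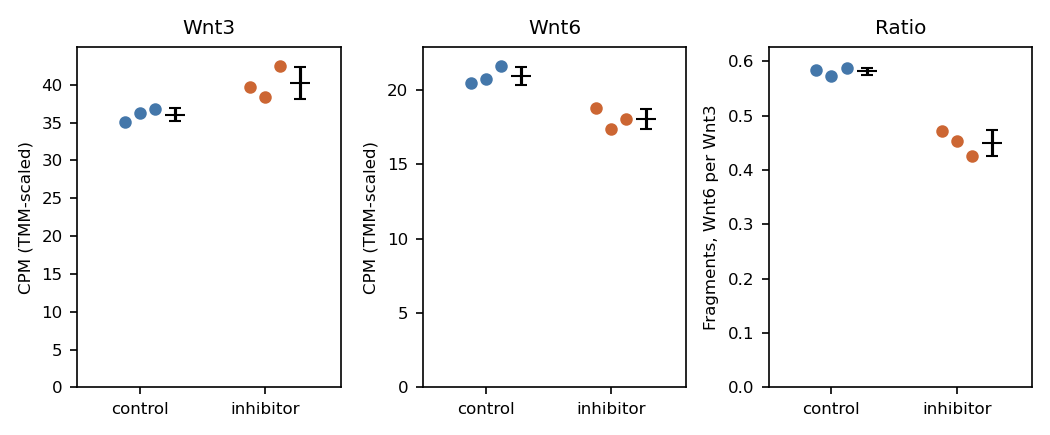
TMM-scaled CPM of Wnt3 and Wnt6 and the number of Wnt6 fragments per Wnt3 fragment (vertical axes, from 0) in each mouse, with the group mean and SD beside the points. For Wnt3 and for Wnt6 the 3 inhibitor mice do not overlap the 3 controls, and their ratio must then separate the groups too.

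Among the other tested ligands no groups were separate. Wnt5b was at 6.45, 7.27 and 7.31 CPM in controls and 6.61, 7.35 and 6.54 CPM in inhibitor mice, with a log2 fold change of −0.04 (95% interval −0.29 to 0.21). Wnt2 (0.22) and Wnt3a (0.22) had the highest estimates and Wnt8b (−0.41) the lowest, with intervals of −0.18 to 0.62, −0.18 to 0.62 and −1.30 to 0.48. Wnt5a, a ligand of the non-canonical branch, varied among controls from 1.92 to 3.35 CPM, a range that held all inhibitor values. Wnt7a, Wnt2b, Wnt1, Wnt9a and Wnt11 had estimates between −0.16 and 0.14.

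Of the 9 tested Frizzled receptors, 7 had negative estimates (6 under the length and GC offset, where Fzd8 was at 0.08) and 0 passed, with a median log2 fold change of −0.18. Fzd2, a receptor for Wnt5a among other ligands, was the receptor whose groups did not overlap. It had 1.00, 1.12 and 1.09 CPM in control mice 1, 2 and 3 and 0.869, 0.350 and 0.805 CPM in inhibitor mice 1, 2 and 3. Inhibitor mouse 2 was far under the others, on 8 fragments. The log2 fold change was −0.63 (SE 0.303, adjusted p = 0.297 in the edgeR test), and without inhibitor mouse 2 it was −0.36.

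Fzd1, close in sequence to Fzd2 and Fzd7, had 4.41, 4.53 and 3.81 CPM in controls and 4.00, 2.76 and 3.22 in inhibitor mice, so that inhibitor mouse 1 lay within the controls. Its log2 fold change was −0.35 (95% interval −0.71 to 0.007). Fzd5 had 5.81, 5.47 and 5.54 CPM in controls and 4.21, 4.24 and 5.56 in inhibitor mice. Inhibitor mouse 3 was among the controls and the other 2 were under them, with a log2 fold change of −0.26 over all mice and −0.41 without inhibitor mouse 3 (adjusted p = 0.365 and 0.066 in the edgeR test). With any other mouse left out it was −0.27 to −0.18, and with the length and GC offset −0.13.

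Fzd3, a receptor of the polarity branch needed for axon guidance, was at 14.0, 11.8 and 12.8 CPM in controls and 11.3, 13.04 and 9.69 in inhibitor mice. Inhibitor mouse 2 lay within the controls, and the log2 fold change was −0.18 (95% interval −0.43 to 0.07). Fzd7 (−0.21), Fzd4 (−0.08) and Fzd8 (−0.01) also overlapped. Fzd6 and Fzd9 had positive estimates, of 0.11 and 0.09. For Fzd6 the lowest inhibitor value, 10.64, was just under the highest control, 10.65 CPM, and on the FPKM scale it was just above, at 2.70 against 2.69.

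**Figure D4:**
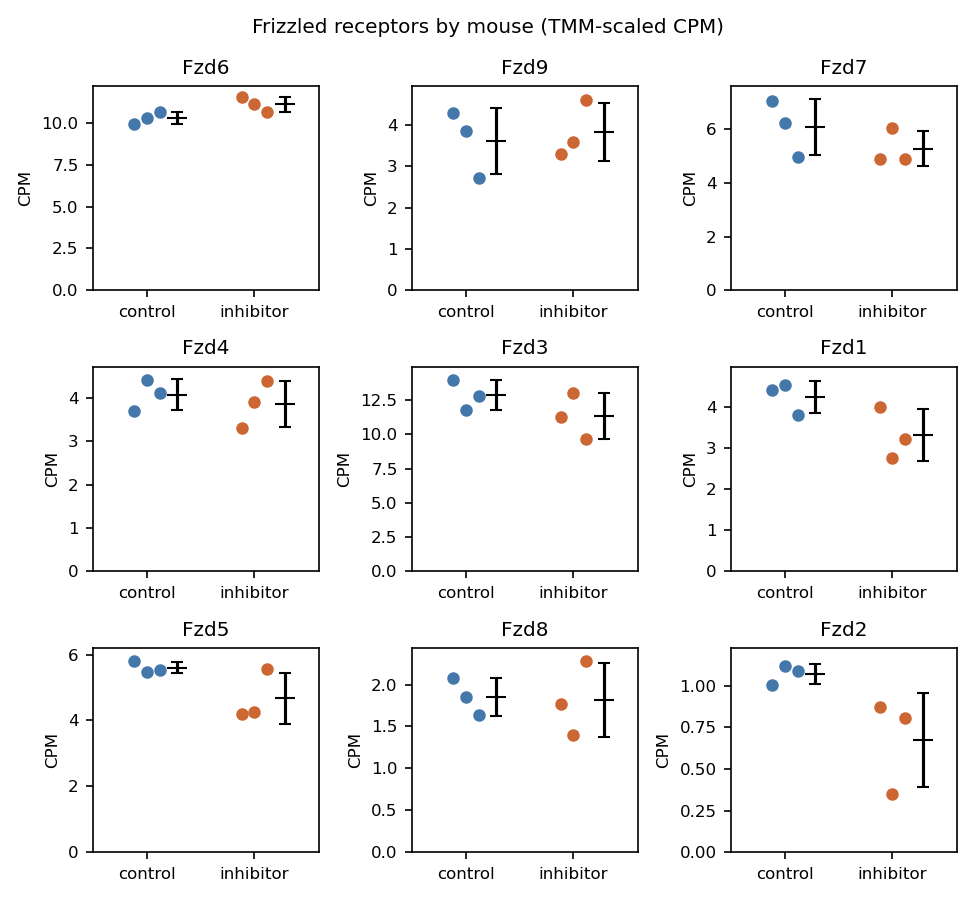
TMM-scaled CPM (vertical axes, from 0) of the 9 tested Frizzled receptors in each mouse, ordered by mean FPKM, with group mean and SD beside the points. Fzd2 alone has inhibitor values that are all under the controls, and Fzd1 and Fzd5 each have 1 inhibitor mouse within the control range.

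Of the antagonists, Dkkl1 had a log2 fold change of 0.05 (SE 0.043, 95% interval −0.04 to 0.15), the narrowest interval of the family, on 17092 to 31643 fragments. Sfrp1 had 2.64, 2.60 and 3.40 CPM in controls and 3.37, 3.19 and 2.31 in inhibitor mice, a log2 fold change of 0.04 (95% interval −0.37 to 0.45). Dkk3 had 1.202, 0.752 and 0.646 CPM in controls and 0.487, 0.744 and 0.595 in inhibitor mice. Control mouse 1 was the high value of Dkk3, and without it the log2 fold change went from −0.49 to −0.22. Sfrp2 was at −0.39, on 4 to 19 fragments per library, with an interval of −1.38 to 0.61. In all, 12 of the 25 tested members had 95% intervals within a 1.5-fold change in either direction, among them Dkkl1, Wnt3, Wnt6, Wnt5b, Fzd6 and Sfrp1. For the other 13 a change of 1.5-fold in at least 1 direction lay inside the interval, so that such a change was not excluded by these data.

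The other genes of the pathway were taken as 7 lists of 86 genes in the table, 78 of them tested. None was called in the edgeR test, where 0.156% of all tested genes were. DESeq2, with no adjusted p for 34 of the 78, called 4 lower and 0 higher. Over all 16658 tested genes DESeq2 called 170 lower and 368 higher. That total includes genes without an adjusted p, so these calls are not compared as shares. More estimates were negative than positive, 56 against 22, with a median log2 fold change of −0.13. That is 71.8% below 0, against 51.0% of all tested genes. At an unadjusted p under 0.05, 20 genes (25.6%) were lower and 8 (10.3%) higher, against 8.48% and 9.43% of all tested genes. With the length and GC offset, 11 were lower and 7 higher, beside 1005 lower and 1241 higher of all 16658 tested genes. The median of the pathway genes was then −0.04. Without inhibitor mouse 3 the edgeR test called 14.3% of all tested genes, 935 lower and 1470 higher of 16871. Among the pathway genes it then called 12 lower and 5 higher. Of these 17 genes, 0 were called with any other mouse left out and 0 under the length and GC offset.

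Co-receptors and alternative receptors had 8 of 9 estimates below 0. Lrp6, the co-receptor of the canonical branch, was at 21.2, 21.4 and 23.6 CPM in controls and 17.2, 15.9 and 16.9 in inhibitor mice, without overlap (log2 fold change −0.40, SE 0.077, adjusted p = 0.062, edgeR). DESeq2 gave an adjusted p of 0.009 for Lrp6, and the edgeR fit without inhibitor mouse 3 gave 0.005. With any other mouse left out edgeR gave 0.193 to 0.292 for Lrp6, and with the length and GC offset a log2 fold change of −0.29 (adjusted p = 0.146). Ptk7, a co-receptor of the polarity branch, was at 7.65, 9.16 and 9.73 CPM in controls and 5.91, 6.04 and 6.79 in inhibitor mice, also without overlap (−0.50, edgeR adjusted p = 0.093, 0.032 with DESeq2 and 0.009 without inhibitor mouse 3). For Ptk7 the length and GC offset gave −0.39 (edgeR adjusted p = 0.203), and leaving out any other mouse gave adjusted p of 0.235 to 0.344. Ror2, a receptor tyrosine kinase for Wnt5a, went the other way (0.91), with 1.44, 1.55 and 3.64 CPM in controls and 4.48, 3.37 and 4.51 in inhibitor mice. Control mouse 3 lay within the inhibitor values of Ror2, and leaving out that overlapping mouse gave 1.47 (edgeR adjusted p = 0.037). With any other mouse left out, the log2 fold change of Ror2 was 0.69 to 1.03 (edgeR adjusted p = 0.308 to 0.506).

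Genes of ligand secretion had 7 of 8 estimates above 0 and a median of 0.16. The retromer genes Vps35 (0.16) and Vps26a (0.15), whose products recycle the WNT carrier Wls among many other cargoes, and the transport gene Tmed5 (0.29) had the smallest p, with edgeR adjusted p of 0.123, 0.132 and 0.108. Without inhibitor mouse 3 these were 0.008, 0.007 and 0.018, and over all 3 genes they were 0.240 to 0.403 with any other mouse left out. Under the length and GC offset the log2 fold changes were 0.10, 0.06 and 0.18 (edgeR adjusted p = 0.310, 0.446 and 0.337). Named after their values were seen, Wls itself was at −0.08 and Porcn, the enzyme that attaches the lipid to WNT ligands, at 0.13.

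R-spondins, which raise Frizzled levels at the cell surface, and the genes of Frizzled turnover had 7 of 7 estimates below 0, with a median of −0.06. Under the length and GC offset 6 of 7 were below 0, with a median of −0.02, and without inhibitor mouse 3 it was 5 of 7. Rspo4 (−1.15) rested on 3 to 32 fragments, Znrf3 was at −0.14 and Lgr6 at −0.18, with edgeR adjusted p of 0.191, 0.338 and 0.514. Among other antagonists, Shisa3 was at 0.19, Kremen2 at 0.84 on 9 to 18 fragments, and Apcdd1 at −0.27, none past the test. Frzb, the third secreted Frizzled-related protein, whose symbol falls outside the naming rule and which was named after its values were seen, had a mean of 4.28 FPKM, above that of each Sfrp gene, and a log2 fold change of 0.16.

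Intracellular components of the canonical branch had 18 of 24 estimates below 0 and a median of −0.16, or −0.07 under the length and GC offset. Apc, a scaffold of the complex that degrades beta-catenin, was at 33.0, 30.1 and 32.0 CPM in controls and 25.9, 22.4 and 26.1 in inhibitor mice. The groups did not overlap (−0.35, edgeR adjusted p = 0.083, or 0.194 with the offset and 0.015 with DESeq2). Bcl9l, a beta-catenin cofactor, was at −0.40 (edgeR adjusted p = 0.095, or 0.324 with the offset and 0.035 with DESeq2) and Dvl2, which relays the signal from Frizzled, at −0.23 (0.130, or −0.11 and 0.477 with the offset). Without inhibitor mouse 3, edgeR gave adjusted p of 0.005 for Apc, 0.003 for Bcl9l and 0.019 for Dvl2, and with any other mouse left out 0.194 to 0.303, 0.224 to 0.347 and 0.288 to 0.390. Ctnnb1, which encodes beta-catenin and was named after its values were seen, was at −0.14, and at −0.23 without inhibitor mouse 3 (edgeR adjusted p = 0.005, against 0.423 to 0.623 with any other mouse left out).

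Feedback and target genes of the canonical branch had 7 of 8 estimates below 0 and the lowest median of the 7 lists, −0.39, or −0.32 under the length and GC offset. The list held 11 genes, of which 8 were tested. Myc, Fosl1, Tnfrsf19 and Cd44, named after their values were seen, rested on 6 to 51 fragments per library. Their 95% intervals took in 0. Axin2, a widely used readout of this branch, was at 4.00, 3.71 and 3.47 CPM in controls and 2.23, 2.71 and 2.97 in inhibitor mice, without overlap, on 62 to 163 fragments. Its log2 fold change was −0.50 (SE 0.161, edgeR adjusted p = 0.144), or −0.42 with the offset (0.274). Without inhibitor mouse 3 it was −0.60 (adjusted p = 0.035, edgeR), and with any other mouse left out −0.54 to −0.39 (0.254 to 0.373). Ccnd1, a G1 cyclin, was at 9.45, 10.8 and 9.12 CPM in controls and 8.27, 7.48 and 7.98 in inhibitor mice, also without overlap (−0.31, edgeR adjusted p = 0.159). Nkd1, a feedback inhibitor, was at −0.39 (edgeR adjusted p = 0.250), again without overlap. Undifferentiated spermatogonial markers were lower in the same mice, with the summed levels given above, and their part in the values of these target genes was not tested.

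Polarity components had 11 of 11 estimates below 0 with a median of −0.11, but 6 of 11 and a median of −0.003 under the length and GC offset. Celsr2, an atypical cadherin, was at −0.32 (edgeR adjusted p = 0.133) and −0.09 with that offset, Prickle2, a core polarity component, at −0.25 and −0.15, and Scrib, a scaffold of the cell cortex, at −0.11 and 0.06. Without inhibitor mouse 3, Scrib was at −0.18 (edgeR adjusted p = 0.010), and with any other mouse left out at −0.12 to −0.06 (0.469 to 0.692).

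**Figure D5:**
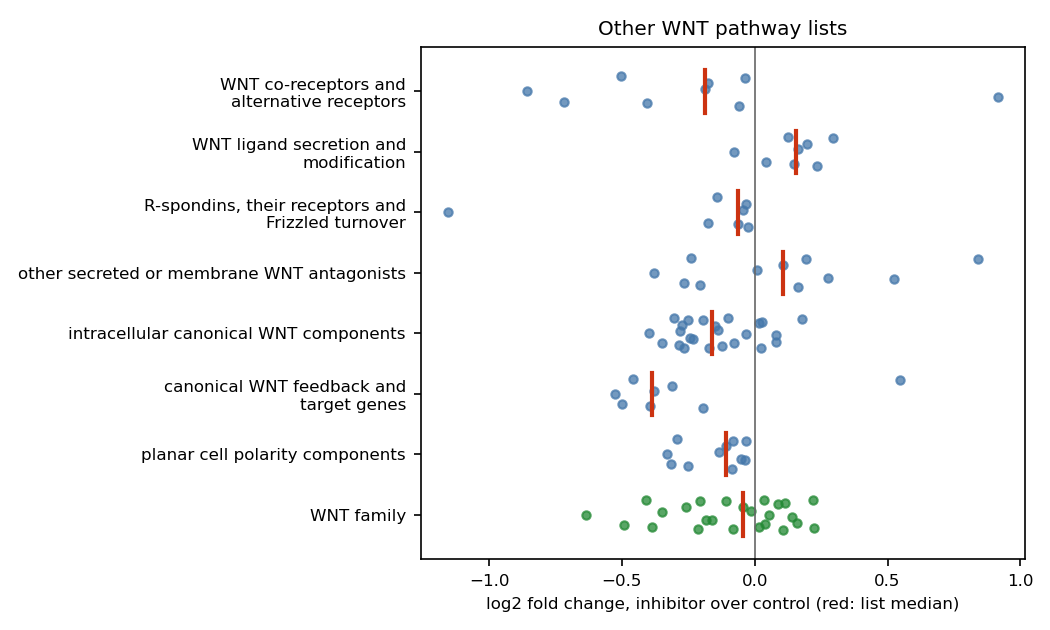
Log2 fold change of inhibitor over control (horizontal axis) for the tested genes of the 7 other WNT pathway lists (blue) and of the WNT family (green), 1 point per gene, with list medians in red. Medians run from −0.39 for feedback and target genes to 0.16 for ligand secretion, and 0 genes passed the adjusted test.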

How the data were processed

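RNA from 6 testes (3 per group) was analysed. Per the labels' protocols, libraries came from 500 ng of RNA through polyA selection and a directional kit, read as single ends of 81 nt. The submitters' processing notes name cutadapt 1.8, TopHat2 2.0.13, Cuffdiff 2.2.1 and build mm10. Their roles, the annotation and the strand setting were not given in the sources used here. The deposited table holds expected counts of fragments per gene and library (98.8% whole within 1e-06; all member values whole) and, scaled by the authors' software, FPKM. Expected counts were rounded for the tests, and the deposited FPKM served for levels between genes and for alternatives.

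Genes passing filterByExpr were scaled by TMM and tested with edgeR 4.0.16 (R 4.3.3, robust quasi-likelihood F-test, two-sided, Benjamini-Hochberg threshold 0.05). Intervals are the log2 fold change plus or minus the t quantile times its SE. A gene at 1 TMM-scaled CPM rested on 22.9 to 43.9 fragments. The procedure was tested on simulated data. Alternatives were RLE or total-count scaling, DESeq2 1.42.0, limma 3.58.1 (voom, or log2 of FPKM plus 1 or 0.1), other filters (none, or 50 counts in 3 libraries), the mouse number as block, a loess offset (span 0.5) on GENCODE M21 transcript length and GC content, and each mouse left out.

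Members and lists were chosen with earlier results of these data known. Of 88 pathway symbols 86 matched, and of 141 marker symbols 140. The naming rule took members past an unadjusted p of 0.05, the 3 most abundant per subfamily, Wnt6, and the 3 smallest p per pathway list; other members are named beyond it, after their values were seen. Windows come from RefSeq (GRCm38.p6), positions from GENCODE M21 (GRCm38, the same assembly as mm10).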

Additional observations from a re-analysis of the deposited data

How the results depend on the processing

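No WNT family member passed the adjusted test in any of 17 alternatives, which were the 6 mice left out in turn and 11 other settings. At the unadjusted threshold the 1 higher and 1 lower member became 0 higher and 3 lower with library totals only, 3 lower with limma-voom, 0 higher with the replicate block, and 0 lower with the length and GC offset, alone or with the replicate block. Leaving out single mice gave 0 to 1 higher and 0 to 3 lower. The members' median went from −0.04 to 0.0018 without a filter, 0.017 with the length and GC offset and 0.017 with that offset and the replicate block, and to −0.10 to 0.014 with single mice left out. Wnt6 and Wnt3 kept their directions in all 17, and their difference was −0.41 to −0.32.

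Among the other pathway genes (0 called), DESeq2 called 4 lower and the fit without a filter 1 lower, and leaving out mice gave 0 to 5 higher and 0 to 12 lower, the highest counts without inhibitor mouse 3. Their 8 higher and 20 lower at the unadjusted threshold became 5 higher with library totals only, 11 lower with DESeq2, 11 lower with the length and GC offset, and 5 higher and 11 lower with that offset and the replicate block. Without single mice they were 4 to 7 and 9 to 26.

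Over all genes, 10 higher and 16 lower became 4 higher (library totals only), 368 and 170 (DESeq2), 3 higher (limma-voom), 0 and 0 (log2(FPKM + 1)), 0 and 1 (log2(FPKM + 0.1)), 58 and 57 (no filter), 3 and 7 (50 counts in 3 libraries), 0 and 5 (replicate block), 0 and 4 (length and GC offset) and 0 and 2 (that offset with the replicate block). They were 0 to 1470 and 0 to 935 with mice left out, both highest without inhibitor mouse 3. The cause of these shifts was not tested.

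Log2 fold changes near 0 changed sign. With the length and GC offset, alone and with the replicate block, Fzd8 was at 0.081 and 0.059, Wnt5b at 0.038 and 0.042, and Scrib at 0.058 and 0.056. Wnt5a was at 0.0037 with both, and Wnt11 at −0.016 with library totals only. With mice left out, Fzd4 ran from −0.19 to 0.021, Fzd8 from −0.21 to 0.13, Fzd9 from −0.073 to 0.21, Sfrp1 from −0.072 to 0.19, Wnt1 from −0.033 to 0.22, Wnt11 from −0.18 to 0.22, Wnt5a from −0.28 to 0.099 and Wnt9a from −0.11 to 0.26. The labels do not say whether equal mouse numbers mark a shared litter, batch or day. Deviations from the group mean correlated at 0.062, −0.12 and −0.020 for same-numbered mice over 13734 genes. For mice of different numbers they correlated at −0.16 to 0.17, and no control correlated best with the inhibitor mouse of its own number. With 3 mice per group and deviations centred within groups, this check cannot exclude a pairing.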
